A study of Gallus gallus with 8 samples.

Results

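Chicken chromosomes 3 and 5 and the long arm of chromosome 4 held 10762 of the 66669 Nrf2 CUT&Tag peaks in 8 lists from broiler liver. Every peak on chromosome 3 or 5 was taken, together with every peak on chromosome 4 that started at or beyond 19 Mb in the galGal6 build. Peaks that overlapped or touched were merged across the lists. This gave 5744 of the 30246 regions of the whole series, with 2606 on chromosome 3, 1651 on the long arm of chromosome 4 and 1487 on chromosome 5. No region straddled the 19 Mb limit. The nearest regions outside it were 4:18696744-18697016, held by 1 PT list, and 4:18558849-18559315, held by 1 HT list. The nearest inside it were 4:19357260-19357868, held by 4 PT lists and 0 HT lists, and 4:19373391-19373986, held by 1 HT list. All positions are 1-based and in galGal6.

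Nrf2 is a transcription factor that Keap1 holds in the cytoplasm and marks for degradation until oxidative or electrophilic stress releases it. In the nucleus it pairs with small Maf proteins at antioxidant response elements and activates genes of detoxification and redox balance. In CUT&Tag an antibody brings a transposase to the bound protein, and the transposase cuts and tags the DNA beside it. The chicken genome is made of a few large macrochromosomes and many small, gene-dense microchromosomes. Chromosomes 3 to 5 are macrochromosomes, and the short arm of chromosome 4 is a former microchromosome joined to a macrochromosome, which is why only the long arm was taken.

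The samples were livers of broilers, chickens raised for meat, with 1 peak list each, and their titles put 4 in PT and 4 in HT. HT samples are labelled as treated with high temperature. For PT, one label names phloretin (a plant polyphenol), another reads normal, and the protocol names high temperature for PT and HT alike. What the PT birds received is therefore not settled by the labels, and differences are given as HT against PT. Age and strain were not found in the labels, which also do not tell whether each sample was a different bird, so p-values measure only the spread between these lists, which may be technical. Peak lists hold no expression values with which the tissue label could be checked, and no read counts, so depth is unknown. The score is the authors' own value for each peak on a scale that is not stated, and it is used only to describe or rank peaks within a list.

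Lists of one group were not independent of each other in their peak ends. Between a pair of PT lists, 61.1% to 85.8% of the regions with a single peak in both had the same start and the same end to the base. Between a pair of HT lists the share was 61.5% to 79.5%. Between a PT and an HT list it was 0% in each of the 16 pairs. The score was also equal in 1.70% to 12.8% of such regions within PT and in 1.17% to 3.89% within HT. Identical ends in at least 2 lists were found in 97.1% of the regions specific to HT and in 99.4% of those specific to PT, as defined below. The permutation tests assume independent lists, and no test here corrects for the shared ends. Among regions in which no lists share ends, 19 were specific to HT, 2 to PT and 0 were held by all 8 lists.

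HT lists held more peaks than PT lists on all 3 chromosomes. The PT lists had 1052, 783, 1281 and 1235 peaks, and the HT lists 1461, 1689, 1411 and 1850. The groups did not overlap, with the shortest HT list above the longest PT list. Means were 1603 ± 204 in HT and 1088 ± 226 in PT (SD, n = 4 lists each), a ratio of 1.47. The exact two-sided permutation test gave p = 0.0286, the smallest value that 70 relabellings allow. Adjusted by Benjamini-Hochberg over the 12 measures tested, the permutation p was 0.0571, which misses the threshold of 0.05. The covered length averaged 0.837 ± 0.0963 Mb in HT and 0.553 ± 0.109 Mb in PT (SD, n = 4 lists each), with the same exact permutation p and adjusted p.

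The direction of this difference turned when all lists were cut by score to the same length. The whole PT lists had 5120 to 7302 peaks and the whole HT lists 9437 to 11141. When only the 5120 highest-scoring peaks of every list were used, the PT lists kept 848, 783, 881 and 937 peaks on these chromosomes and the HT lists 689, 747, 717 and 753. The HT lists then lay below the PT lists without overlap, with a mean difference of -135.75 peaks (exact permutation p = 0.0286, adjusted p = 0.0490). That exact p is the same smallest value as with the full lists. The adjusted p is lower only because more of the 12 measures reached it. One of these, the share of the list, repeats the peak count when all lists have 5120 peaks. The lowest score kept was 50.57 to 52.49 in HT and 40.03 to 48.95 in PT. As a share of the full list, the peaks made up 16.2%, 15.3%, 17.5% and 18.6% in PT and 14.9%, 15.7%, 14.95% and 16.6% in HT. These shares overlapped between the groups (difference -1.37 percentage points, exact permutation p = 0.171, adjusted p = 0.229). Without PT list 4 the difference was -0.807 points.

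Each of the 3 chromosomes had a ratio of HT to PT means between 1.43 and 1.52. On chromosome 3, the largest of them, the PT lists had 472, 350, 576 and 569 peaks and the HT lists 675, 801, 653 and 855, a ratio of means of 1.52. On the long arm of chromosome 4 the PT lists had 290, 228, 367 and 350 and the HT lists 393, 454, 400 and 516, a ratio of 1.43. On chromosome 5 the PT lists had 290, 205, 338 and 316 and the HT lists 393, 434, 358 and 479, a ratio of 1.45. The groups did not overlap on any of the 3, each with exact permutation p = 0.0286 and adjusted p = 0.0571. With equal list length the HT mean was lower on each, with differences of -36.5 peaks on chromosome 3 (exact permutation p = 0.0857), -58.5 on the long arm of chromosome 4 and -40.75 on chromosome 5 (exact permutation p = 0.0286 for both). Chromosome 5 took 26.4 ± 0.830% of the peaks in PT and 26.0 ± 0.659% in HT (SD, n = 4 each, exact permutation p = 0.457).

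**Figure D1:**
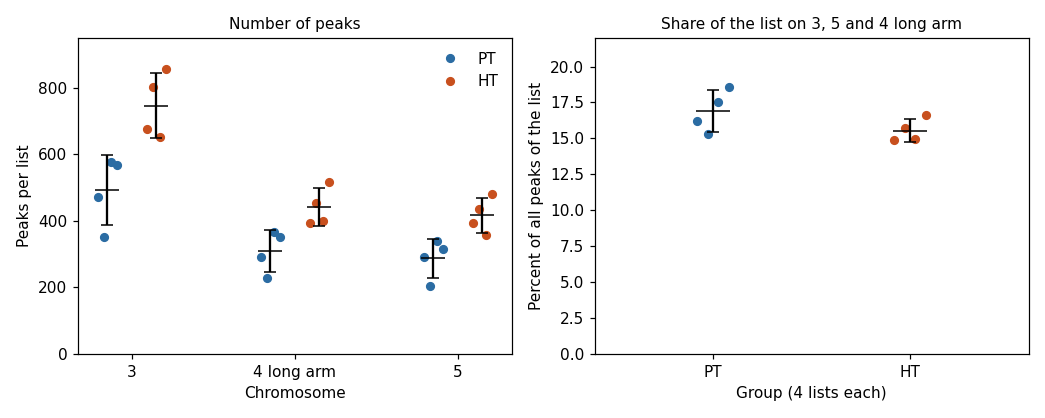
Left, peaks per list on chromosome 3, the chromosome 4 long arm and chromosome 5; right, these peaks as a percent of each whole list; points are single lists, bars the mean and SD of 4 lists. HT lists lie above PT lists on each chromosome, while the shares overlap, from 14.9% to 16.6% in HT and from 15.3% to 18.6% in PT.

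The ratio of HT to PT means was 1.47 here, 1.84 on chromosomes 11 to 20, the larger microchromosomes, and 1.38 on chromosomes 1 and 2. For each list, log2 of the peaks on chromosomes 3, 5 and the long arm of 4 over the peaks on chromosomes 11 to 20 was 0.55 ± 0.10 in PT and 0.23 ± 0.09 in HT (SD, n = 4 each). The groups did not overlap, and the difference of -0.32 gave an exact permutation p = 0.0286 and an adjusted p = 0.0571. With equal list length it was -0.31, with the same exact permutation p = 0.0286 and an adjusted p = 0.0490. Per Mb, chromosomes 3, 5 and the long arm of 4 had 4.48 peaks in PT and 6.60 in HT, and chromosomes 11 to 20 had 5.37 and 9.90. The same log2 ratio to chromosomes 1 and 2, the largest macrochromosomes, was -0.85 in PT and -0.75 in HT (difference 0.10, exact permutation p = 0.143, adjusted p = 0.214).

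Along the chromosomes, the higher HT counts were spread over most of the length. Of 27 bins of 10 Mb, 16 passed the test as higher in HT (59.3%) and 0 as lower. Beside this, 52.2% were called higher and 8.33% lower over the 228 bins of the whole series. Of those 228 bins, 109 lay on scaffolds, Z or W. Each of the 16 had the smallest possible exact permutation p = 0.0286 and adjusted p = 0.0472 (Benjamini-Hochberg over all bins). These 16 are therefore the bins without overlap between the groups, and their passing depended on how many bins of the series reached that p. The HT mean was higher in 26 of the 27. By chromosome, 8 of 12 bins passed on chromosome 3, 5 of 9 on the long arm of chromosome 4 and 3 of 6 on chromosome 5. No bin passed when PT list 2, HT list 2 or HT list 4 was left out, nor with 5 Mb bins, nor with equal list length. As a percent of the whole list no bin passed either. On that scale 6 bins were lower in HT at an unadjusted exact permutation p = 0.0286 and 0 were higher, with 19 of 27 bins having a lower HT mean.

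The bins differed in their ratio. The highest was at 30 to 40 Mb of chromosome 3, with 44, 29, 56 and 37 peaks in the PT lists and 69, 79, 69 and 84 in the HT lists, a ratio of 1.81. The bin at 80 to 90 Mb of chromosome 4 followed with 43, 28, 48 and 47 against 64, 77, 72 and 86, a ratio of 1.80. Then came 80 to 90 Mb of chromosome 3 with 37, 30, 49 and 49 against 66, 76, 61 and 86, a ratio of 1.75. In these 3 bins the groups did not overlap. The lowest ratio, 0.95, belonged to the 1 Mb piece of chromosome 4 between 19 and 20 Mb, with 5 peaks in every PT list and 3, 5, 3 and 8 in the HT lists. At 70 to 80 Mb of chromosome 4 the PT lists had 38, 28, 52 and 41 peaks and the HT lists 41, 49, 38 and 52, a ratio of 1.13 (exact permutation p = 0.6). At 70 to 80 Mb of chromosome 3 they had 36, 29, 41 and 49 against 34, 55, 34 and 58, a ratio of 1.17 (exact permutation p = 0.457). The groups overlapped in these last 3 bins, and the chromosome 3 bin held 12 HT-only and 12 PT-only regions.

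**Figure D2:**
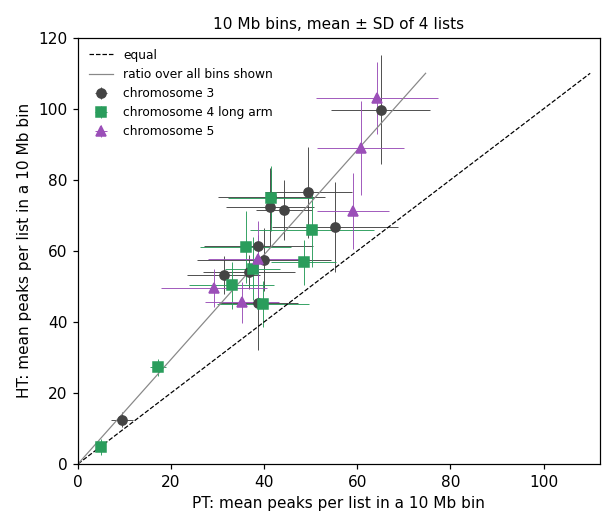
Mean peaks per list in each 10 Mb bin in PT (horizontal) and HT (vertical), with the SD of 4 lists; the dashed line marks equal means and the grey line the ratio over the bins shown. Of 27 bins, 26 lie above the line of equal means.

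The share of peaks near a chromosome end overlapped between the groups. Of the peaks, 14.98 ± 1.21% in PT and 15.4 ± 0.286% in HT (SD, n = 4 each) lay within 5 Mb of an outer end (difference 0.429 points, exact permutation p = 0.629). In the highest-scoring 50% of each list the difference was 3.70 points (exact permutation p = 0.0286, adjusted p = 0.0571), and with equal list length 1.67 points. Regions were spaced with a median gap of 26.9 kb on chromosome 3, 27.6 kb on the long arm of chromosome 4 and 24.2 kb on chromosome 5. The longest stretches with no peak in any list were 3:5652653-6357680, 4:63510654-64118136 and 5:5992500-6511052, of 705, 607 and 519 kb. The last of them lies between both runs of common regions on chromosome 5 described below.

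Most regions were held by a single list. This was so for 3713 of 5744, or 64.6%, against 55.9% of the regions of the whole series. A further 567 regions were held by 2 lists, 309 by 3, 1026 by 4, 47 by 5, 17 by 6, 16 by 7 and 49 by all 8. Regions of exactly 4 lists were mostly those held by one complete group and by no list of the other. The share of a list's regions found in no other list ran from 17.1% to 51.1% in PT and from 17.1% to 43.1% in HT. The Jaccard index of covered bases, the shared length over the joint length, averaged 0.356 within PT and 0.413 within HT. Between groups it averaged 0.0588, and its highest value there, 0.0682, was below the lowest within a group, 0.260. Lists of one group share peak ends, as described above, so the values within a group do not measure the likeness of independent lists.

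Regions held by 4 HT lists and no PT list, called HT-only, numbered 655 (11.4%, beside 14% of all regions of the series). Regions held by 4 PT lists and no HT list, called PT-only, numbered 354 (6.16%, beside 6.83%). On chromosomes 1 and 2 the HT-only and PT-only shares were 11.8% and 7.53%, a ratio of 1.57. On chromosomes 11 to 20 they were 15.4% and 6.15%, a ratio of 2.50. HT-only regions here outnumbered PT-only regions 1.85 to 1, and 2.05 to 1 in the whole series. With equal list length the order turned, to 230 HT-only and 271 PT-only regions. Chromosome 3 held 310 HT-only and 160 PT-only regions, the long arm of chromosome 4 held 171 and 105, and chromosome 5 held 174 and 89. Regions of all 8 lists numbered 49 (0.853%, beside 2.41%), with 19 on chromosome 3, 10 on the long arm of chromosome 4 and 20 on chromosome 5. The smallest of the 3 chromosomes therefore had the most of them, 1.34% of its regions. Regions of all 8 lists made up 1.70% of the regions on chromosomes 1 and 2 and 2.03% of those on chromosomes 11 to 20.

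**Figure D3:**
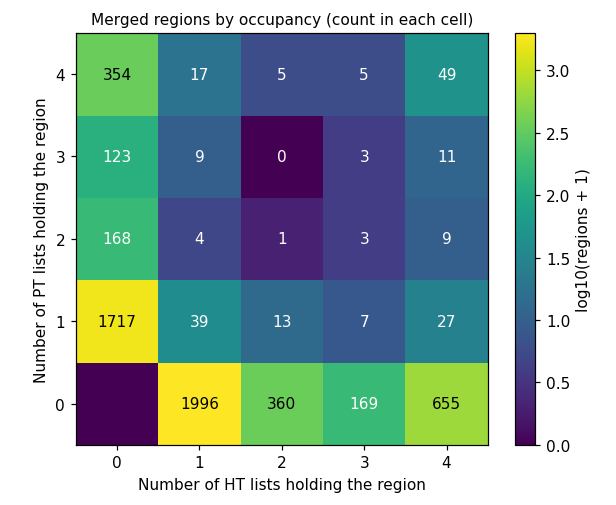
Number of merged regions by how many HT lists (horizontal) and PT lists (vertical) hold them; colour is log10 of the count plus 1. The counts gather along the left and lower edges, with 354 PT-only and 655 HT-only regions at the corners and 49 regions of all 8 lists at the upper right.

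PT and HT lists met less often here than on the other chromosomes compared, in tests chosen after the data were seen. The percent of a list's peaks that themselves overlapped a peak of the other group was 12.5%, 14.7%, 10.1% and 10.5% in the PT lists. In the HT lists this percent was 9.51%, 8.17%, 8.93% and 7.51%. On chromosomes 1 and 2 it was 18.8 ± 3.24% in PT and 13.01 ± 0.819% in HT (SD, n = 4 each). The share was lower in 8 of 8 lists, by 5.65 percentage points on average (exact sign-flip permutation p = 0.0078, the smallest that 8 lists allow, adjusted p = 0.0208 over 8 added tests). On chromosomes 11 to 20 the share was 20.6 ± 2.60% in PT and 11.4 ± 0.745% in HT, so the gap was wider in PT. Against these it was lower by 5.74 percentage points over all lists, also in 8 of 8 lists (adjusted p = 0.0208, exact permutation test). The 8 lists share the other group's peaks and each other's ends, so they are not 8 independent trials. Of the 751 regions held by 4 HT lists, 12.8% were met by a PT list, against 21.1% over the series. Of the 430 held by 4 PT lists, 17.7% were met by an HT list, against 34.2%.

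Median peak width overlapped between the groups, and regions of all 8 lists were the widest class by median. It averaged 481.75 ± 3.20 bp in PT and 481 ± 2.94 bp in HT (SD, n = 4 each, exact permutation p = 0.886). With equal list length the median averaged 408.5 bp in HT and 461.75 bp in PT, a difference of -53.25 bp (exact permutation p = 0.0286, adjusted p = 0.0490). That cut keeps a smaller part of each HT list, and the narrowest peaks carry high scores, so it cannot compare width alone. In the highest-scoring 50% of each list the difference was -20.75 bp (exact permutation p = 0.0571, adjusted p = 0.0980). HT-only regions had a median width of 515 bp and PT-only regions 503 bp, beside 490 bp for all 5744. The median of the all-8 regions was 1456 bp, with an interquartile range of 916 to 2381 bp, and 33 of the 49 were at least 1000 bp wide. A merged region of 8 lists is the union of 8 peaks or more, so its width is partly made by merging.

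Score rank was also highest in regions of all 8 lists, while PT-only regions ranked above HT-only regions. The percentile of a peak's score within its own whole list, averaged over the lists that hold a region, had a median of 51.0 in HT-only, 58.9 in PT-only and 79.9 in regions of all 8 lists. In regions of a single list it was 38.1. The whole PT lists are shorter than the HT lists, so a percentile does not mean the same in both groups. The ranks of these classes were not compared at equal list length. Over all peaks of a list on these chromosomes, the median percentile was 48.5 ± 2.34 in PT and 46.1 ± 1.10 in HT (SD, n = 4 each, exact permutation p = 0.114). Against chromosomes 1 and 2 it was lower in 8 of 8 lists, by 1.96 percentile points (exact permutation p = 0.0078, adjusted p = 0.0208). That call was lost with equal list length (difference -2.46, exact permutation test, adjusted p = 0.0625). Against chromosomes 11 to 20 the difference was -0.535, with 3 lists lower and 3 higher (exact permutation test, adjusted p = 0.688).

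**Figure D4:**
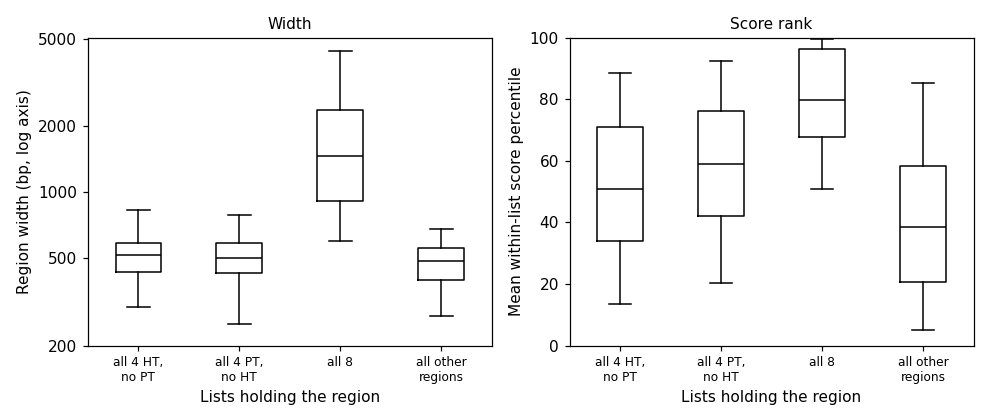
Width (left, log axis) and mean within-list score percentile (right) of HT-only, PT-only, all-8 and other regions; boxes give the median and quartiles, whiskers the 5th and 95th percentiles. Regions of all 8 lists are the widest class shown, with a median of 1456 bp, and rank highest, with a median percentile of 79.9.

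Among the HT-only regions with the highest score rank, narrow peaks were common. The 4 that ranked highest on each chromosome had mean percentiles of 90.3 to 97.1, and 8 of the 12 were at most 310 bp wide. On chromosome 3, the 280 bp region 3:22767166-22767445 had scores of 124.07, 154.11, 156.85 and 123.64 in HT lists 1 to 4. The 634 bp region 3:3542601-3543234 had 135.94, 137.29, 113.76 and 102.83, and the 800 bp region 3:69483190-69483989 had 96.51, 132.52, 121.79 and 101.10. All of these are absent from the 4 PT lists, as is the 214 bp region 3:53172781-53172994. On the long arm of chromosome 4 the widest of the 4 was 4:32763401-32764232, at 832 bp, with scores of 77.13, 168.19, 142.86 and 76.39, lower in lists 1 and 4 than in lists 2 and 3. The others were 4:31356507-31356710, 4:20116123-20116413 and 4:33543777-33544026, of 204, 291 and 250 bp. On chromosome 5, the 1003 bp region 5:16177744-16178746 had scores of 147.79, 122.84, 127.70 and 116.10, and the 265 bp region 5:57686661-57686925 had 129.17, 125.72, 142.86 and 119.39.

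Some of these scores repeat exactly. The 202 bp region 5:11701718-11701919 had the same 4 scores as 4:31356507-31356710, which were 111.11, 113.63, 115.80 and 110.72. The 225 bp region 5:19446040-19446264 had the same 4 scores as 4:20116123-20116413, which were 98.49, 100.79, 102.78 and 98.13. Peaks of at most 260 bp made up 3.89% to 7.66% of the peaks in PT and 4.16% to 4.96% in HT. Their median score percentile was 89.5 to 92.1, while that of wider peaks was 43.2 to 47.5. The narrowest peaks of these lists therefore carry high scores, and of the 12 regions named here for each group, 5 were at most 260 bp wide in HT and 5 in PT. In 6 of the 12 for each group, all 4 lists had the same ends. Repeated scores were not confined to narrow peaks. In the HT lists, 57.1% to 71.4% of peaks of at most 260 bp had a repeated score, and 62.0% to 70.1% of wider peaks. In the PT lists the shares were 51.7% to 73.8% and 35.1% to 53.5%.

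The PT-only regions with the highest rank had mean percentiles of 90.1 to 99.2. On chromosome 3, the 272 bp region 3:71394257-71394528 had scores of 358.17, 343.78, 353.65 and 349.27 in PT lists 1 to 4, and the 310 bp region 3:103146834-103147143 had 333.59, 344.59, 305.52 and 313.66. The 260 bp region 3:77809557-77809816 had 246.16, 300.70, 225.26 and 200.93, and the 204 bp region 3:45117081-45117284 had 205.69, 224.05, 224.05 and 215.07. None of the 4 HT lists has a peak in any of them. On the long arm of chromosome 4, 4:70407081-70407741, of 661 bp, had scores of 114.97, 242.81, 117.96 and 205.69, and 4:31212320-31212804, of 485 bp, had 175.78, 192.05, 82.28 and 175.78. The 793 bp region 4:27796347-27797139 and the 204 bp region 4:61382523-61382726 completed the 4. On chromosome 5, the 204 bp region 5:9062971-9063174 had a score of 211.32 in 3 lists and 182.64 in PT list 4. Regions 5:27372717-27372925, 5:12240619-12240989 and 5:16179366-16180052 followed, with widths of 209, 371 and 687 bp.

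HT-only and PT-only regions sometimes lay side by side. Within 5 kb, 20 HT-only regions had a PT-only neighbour (3.05% of their class). Likewise, 22 PT-only regions had an HT-only neighbour (6.21% of theirs). A region of any PT list lay within 5 kb of 14.5% of the HT-only regions, and within 50 kb of 69.2%. The median gap between merged regions was 24.2 to 27.6 kb on these chromosomes, shorter than 50 kb. No share for randomly placed regions was computed. Whether such neighbours are more frequent than the density of regions alone would give was therefore not tested. The closest pair was on chromosome 4, where the PT-only region 4:91177970-91178375 ended 69 bp before the HT-only region 4:91178445-91179345. On chromosome 5 the HT-only region 5:19007035-19007615 ended 97 bp before the PT-only region 5:19007713-19008208. The highly ranked 5:16177744-16178746 and 5:16179366-16180052, HT-only and PT-only, lay 619 bp apart. In such places the lists of PT and HT differ in class although their peaks are neighbours.

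The 49 regions common to all 8 lists were 250 to 7459 bp wide, with an interquartile range of mean percentiles of 67.8 to 96.3. The 12 named here were picked for the highest percentile, 4 per chromosome, so their rank does not describe the class. They were 600 to 7459 bp wide, with mean percentiles of 95.9 to 99.9, and 0 of them were at most 310 bp wide. The region 3:105175515-105181159, of 5645 bp, had scores of 1652.40, 1631.72, 1648.26 and 1418.75 in PT and 1892.29, 1905.57, 1870.34 and 1899.59 in HT, near the top of every list. On the long arm of chromosome 4, 4:90699997-90707455 had 579.03, 574.25, 416.63 and 572.97 in PT and 374.00, 627.46, 407.96 and 475.45 in HT. It is the widest merged region of the 5744, at 7459 bp. The 2384 bp region 4:24917329-24919712 had 443.26, 410.77, 417.29 and 488.69 in PT and 558.74, 593.50, 576.91 and 607.36 in HT. Scores of different lists are given side by side as a description only. The other highly ranked common regions on these arms were 3:2473981-2476488, 3:95287307-95288055, 3:95260551-95267483, 4:24948193-24948792 and 4:91268470-91269481.

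On chromosome 5, the neighbouring common regions 5:6511053-6514194 and 5:6514376-6517863 had scores of 185.32, 174.38, 152.06 and 138.46 and of 231.04, 232.94, 243.76 and 223.96 in PT. In HT they had 281.18, 235.50, 235.06 and 222.84 and 206.62, 228.67, 226.76 and 243.72. Further along, 5:56901300-56902534, of 1235 bp, and 5:56981860-56986004, of 4145 bp, belonged to a run of 3 common regions among 8 regions over 150001 bp. The 4145 bp region had scores of 111.97, 103.50, 110.73 and 118.49 in PT and 281.07, 239.27, 258.19 and 263.53 in HT.

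Inside the 49 common regions, the HT lists covered more bases. The median covered length was 847, 847, 990 and 853 bp in the PT lists and 1142, 1094, 1124 and 1124 bp in the HT lists. The groups did not overlap, and the means of 884 ± 70.6 bp and 1121 ± 19.9 bp (SD, n = 4 each) differed by 236.75 bp (exact permutation p = 0.0286, adjusted p = 0.0457, a test chosen after the data were seen). All 49 regions had identical peak ends in at least 2 lists, and covered length follows from those ends. The 4 values of a group are therefore not independent, and neither the SD nor the p-value measures the spread of independent samples. The mean length was greater in HT in 34 of the 49. The median within-list percentile of these regions was 82.4, 78.2, 84.5 and 85.7 in PT and 91.3, 89.6, 91.3 and 92.5 in HT, a difference of 8.47 (exact permutation p = 0.0286, adjusted p = 0.0457). Without the regions on chromosome 5 below 10 Mb the percentile difference was 2.86 (exact permutation test, adjusted p = 0.261). Leaving out HT list 1, 2 or 4 raised the adjusted permutation p to 0.0571 for covered length and to 0.0833 or above for the percentile. For covered length the exact permutation p stayed at 0.0286, the smallest possible, with differences of 230.5, 242.5 and 262.1 bp. Only its adjustment moved. The percentile call was also lost with equal list length, at a difference of 2.14 (exact permutation test, adjusted p = 0.0980).

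Some of the common regions lay close together. Counting regions at most 100 kb apart as a run, a limit chosen after the data were seen, 26 of the 49 fell into 9 runs and 23 stood alone. No share for randomly placed regions was computed, so whether this is more than random placement would give was not tested. Of the 20 on chromosome 5, 12 lay below 10 Mb. Both longest runs were there, with 5 common regions each, spanning 5:5928239-5985001 and 5:6511053-6607871. The first run covered 56763 bp, and its 5 regions started 12505, 14765, 13529 and 14508 bp apart. The second run covered 96819 bp and held 15 regions in all, of which 3 were HT-only. Its regions were less evenly spaced, with starts 3323 to 56591 bp apart.

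The first run also held regions of the HT lists between the common ones. Of its 11 regions, 8 were held by 4 HT lists and 5 by 4 PT lists. Region 5:5933160-5934649, of 1490 bp, was HT-only, while 5:5946124-5947460 and 5:5961025-5961937 were held by 4 HT lists and 1 PT list. The mean covered length was higher in HT in each of its 5 common regions. In 5:5940744-5942651 the groups overlapped, with 1007 bp in every PT list and 881 to 1550 bp in the HT lists. In 5:5969038-5971418 the lists covered 1272 ± 176 bp in PT and 2232.5 ± 99 bp in HT (SD, n = 4 each), and in 5:5983546-5985001 they covered 675 ± 103.5 bp and 1448.5 ± 5 bp. These examples were picked after their values were seen and are given without a test.

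**Figure D5:**
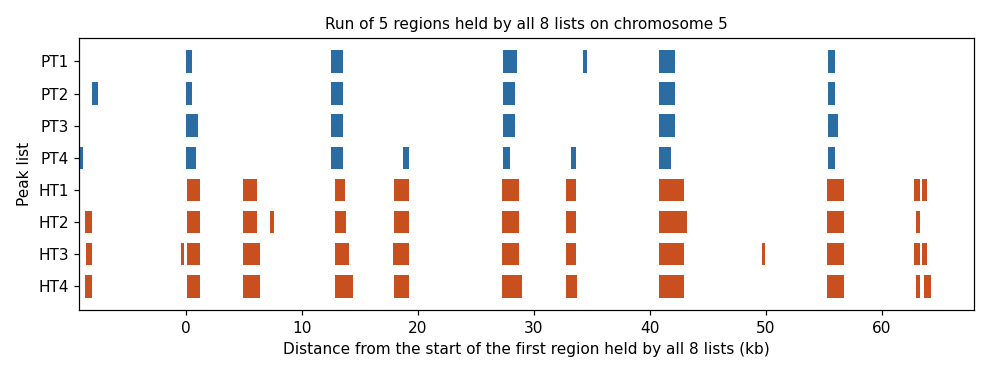
Peaks of each list along the run of 5 common regions on chromosome 5, as the distance in kb from the start of the first common region; each bar is 1 peak. The 5 common regions recur at steps of 12.505 to 14.765 kb. Peaks at about 5 kb appear in the 4 HT lists and in no PT list. Peaks near 18 and 33 kb appear in the 4 HT lists and in PT list 4. A peak near 34 kb appears in PT list 1 only, and a peak near 50 kb in HT list 3 only.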

How the data were processed

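Nrf2 CUT&Tag peak lists of 8 broiler liver samples were analysed. Per the submitters' processing notes, galGal6, Bowtie2 2.2.4 and cutadapt 1.9.2 were used, without roles or settings. MACS begins the deposited names of peaks; its version, its options and any control used are not stated in the sources. A deposited list gives chromosome, start, end, name and the authors' score per peak, and scores ran from 40 to 3100. Whether peaks were called on each sample alone is not stated. The deposited lists hold no read counts, so depth is unknown and no counting interval was possible.

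Starts were raised by 1 base. Overlapping or touching peaks were merged, and an overlap of 1 bp sufficed for a list to hold a region. Score percentiles were taken within each whole list. The 12 measures were compared by exact two-sided permutation over 70 relabellings, with Benjamini-Hochberg adjustment, and 10 Mb bins with at least 8 peaks over all chromosomes likewise. Regions were named by rank: per chromosome and class, the 4 with the highest mean score percentile, with the 3 highest and 3 lowest bins by HT to PT ratio. Members, tests and rules were chosen with earlier results of these data known. Added after the data were seen were 8 tests (sign flips over 256 patterns within lists, or permutation between groups), the run limit, the neighbour distances and further alternatives. Alternatives tried were peaks in the upper 50% of scores, 5120 peaks per list, peaks of at least 260 bp, chromosome 4 from 21 Mb, merging over 500 bp, a cover of 50%, no shared ends, a replicate block, other bins and end distances, numbered chromosomes only as the denominator, and leaving out each list. Counting and tests were tested on simulated data in which ends and counts were drawn independently for each list. Such data do not cover the shared ends of the real lists. No gene is named and no sequence is printed, because no galGal6 annotation or genome was used here, and the gene table at hand is of another assembly. Python 3.11.15, numpy 2.4.6, scipy 1.17.1 and matplotlib 3.10.9 were used.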

Additional observations from a re-analysis of the deposited data

Results flagged for a closer look

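Over 16 measures in 2 groups, 1 of 32 groups of 4 lists had a list set far apart from the others, where chance marks about 1 group in 20. The median covered length in regions of all 8 lists was 990 bp in PT list 3, against 847, 847 and 853 bp in the other PT lists. It lies on the side of the HT lists, which covered 1094 to 1142 bp, and without it the difference between the groups was larger, at 256.1 bp over the regions of the other 7 lists.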

How the results depend on the processing

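Of 158 repeats of the 12 tested measures, 149 kept direction and 146 also the side of the threshold. All 12 had missed it in the main setting, so that side shows no robustness. The added tests kept both in 82 of 98. Of 59 repeated counts, 44 stayed within 1.5 times. With 5120 peaks per list, HT minus PT was -135.75 peaks, -0.0459 Mb covered, -36.5 peaks on chromosome 3, -58.5 on the long arm of chromosome 4 and -40.75 on chromosome 5, all reversed, while the width difference of -53.25 bp, the share of the list at -2.65 points and the log2 ratio to chromosomes 11 to 20 at -0.31 passed the threshold. By construction this setting removes the excess length of the HT lists, keeping a smaller, higher-scoring part of each. The narrowest peaks carry high scores, so width alone cannot be compared. The width difference in the highest-scoring 50% was -20.75 bp (exact permutation test, adjusted p = 0.0980). With 5120 peaks in every list, the share repeats the test of the peak count. The log2 ratio to chromosomes 11 to 20 had an exact permutation p = 0.0286, the smallest possible, in both settings. Its adjusted p moved from 0.0571 to 0.0490 only because more of the 12 measures reached that smallest p. The peak count, the covered length and the counts on the long arm of chromosome 4 and on chromosome 5 moved likewise, with the direction reversed. Every adjusted p of 0.0490 here rests on the number of measures at that smallest p, the repeated share included. HT-only regions numbered 259 in the highest-scoring 50%, 230 with 5120 peaks per list and 19 without shared ends; PT-only regions 159 in the highest-scoring 50% and 2 without shared ends; regions of all 8 lists 30 in the highest-scoring 50%, 29 at a cover of 50% and 0 without shared ends. Of the 12 named regions of each one-group class, 5 kept it with peaks of at least 260 bp and 0 without shared ends. Called bins numbered 0 with 5 Mb bins, the percent scale, the highest-scoring 50% or 5120 peaks per list, and 0 to 14 when one list was left out. Within 2 Mb of an end the share differed by -0.397 points; leaving out one list, the 5 Mb value ran from -0.112 to 0.853, the share of the list from -1.91 to -0.807 and the width difference from -2.08 to 0.333 bp. Of the added tests, width against chromosomes 11 to 20 was -29.75 bp in the highest-scoring 50%, -26.1 bp with 5120 peaks per list, -7.75 bp with peaks of at least 260 bp, and -6.64 to -4.36 bp leaving out one list. The score percentile against chromosomes 11 to 20 was -3.19 in the highest-scoring 50%, -2.61 with 5120 peaks per list, and -0.779 to 0.116 leaving out one list; against chromosomes 1 and 2 it was -2.46 with 5120 peaks. In regions of all 8 lists the percentile difference was 2.14 with 5120 peaks, 2.86 without chromosome 5 below 10 Mb and 5.82 to 13.8 leaving out one list, and the covered length 230 to 271 bp. Other causes were not tested. With the replicate number as a block (replicate block), differences cannot change, 515 peaks for instance. Nor can an exact permutation p be under 0.125 with 4 pairs, so these repeats decide nothing. Raw counts of all lists rise and fall together over the 27 bins and cannot show pairing. PT list 1 and HT list 1 had 5 and 3 peaks at 19 to 20 Mb of chromosome 4. At 0 to 10 Mb of chromosome 5 they had 63 and 97. On a scale other than raw counts, same-numbered lists correlated at 0.205, -0.0138, 0.244 and 0.0168, and the numbers were not taken to pair samples. Depth is unknown, so a peak missing from a list cannot be told apart from one too shallow to call.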
